A study of Mus musculus with 27 samples.

Results

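The 9 genes described here are genes of the kidney tubule, followed in m-ICc12 cells, an immortalised mouse cell line held to be of small intestinal epithelial origin. They are Havcr1, Kcnj15, Pax2, Pax8, Lrp2, Cubn, Cdh16, Aqp1 and Hvcn1, that is 9 of the 22524 genes counted in every library. The set was chosen by the levels of Havcr1 and Kcnj15, which are high in m-ICc12 and absent from intestinal organoids, and the comparison asks whether the line carries features of renal epithelium. Because the choice used these values, the difference between m-ICc12 and organoids is given for all 9 genes as a description, without a test.

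RNA was sequenced from 27 libraries. Jejunal epithelial organoids were grown from 9 wild-type C57BL/6J mice, adult males, with 3 cohoused littermates per facility, from the specific pathogen-free (SPF) facilities SR and SE and a germ-free one (GF), and every organoid culture was frozen, revived and passaged before sampling. For each organoid culture there is a library with the label untreated and a library with the label TNF (5 ng/ml for 8 h), called TNF-treated from here on. The m-ICc12 cells gave 3 libraries under each label, numbered 1 to 3, and it is not known whether libraries of the same number come from the same culture. Mouse embryonic fibroblasts (MEF) of the C57BL/6 strain gave 3 untreated libraries and serve as an outgroup of non-epithelial cells. The m-ICc12 cells are a single immortalised line, kept in medium with little serum, insulin, dexamethasone, triiodothyronine and EGF, while the MEFs were kept in medium with serum and none of these. No source used here says that the 3 libraries of m-ICc12 or of MEF came from separate thaws or derivations, so the p-values measure the spread between these libraries, which may be technical.

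The nephron is lined by a chain of epithelial segments, of which the proximal tubule takes back most of the filtered water, ions, sugars, amino acids and proteins. Pax2 and Pax8 are paired-box transcription factors that mark the nephric lineage and remain on in parts of the adult tubule, Pax8 also in thyroid and both in the female reproductive tract. Cdh16 encodes kidney-specific (KSP) cadherin, an adhesion molecule of tubular epithelium. Havcr1 encodes KIM-1, a phosphatidylserine receptor that appears on injured proximal tubule cells. Lrp2 (megalin) and Cubn (cubilin) are the giant receptors that retrieve filtered proteins, and Cubn is also made by enterocytes, where it takes up vitamin B12. Aqp1 is the water channel of the proximal tubule and the thin descending limb, Kcnj15 (Kir4.2) is an inwardly rectifying potassium channel of the basolateral membrane, and Hvcn1 is a voltage-gated proton channel best known from phagocytes.

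The start regions of the genes on which the description turns are shown first. RefSeq promoter windows of build GRCm38.p6, from 250 bases before to 50 bases after a transcription start, were found for 7 of the 9 genes, 11 windows in all, and none was used for Cdh16 and Hvcn1. The windows of Havcr1 (chr11:46750261-46750560, plus strand, the only one of its 3 windows with a match) and Kcnj15 (chr16:95257308-95257607, plus strand) belong to the pair that chose the set, and those of Lrp2 (chr2:69585980-69586279, minus strand) and Cubn (chr2:13491827-13492126, minus strand) belong to the 2 partner receptors that were at opposite levels in m-ICc12. Capitals mark the matches found when both strands were searched for the HNF1 half-site GTTAAT, the HNF4 site CAAAGTCCA, the paired-domain core GTCACGC and the TATA box TATAAA, which is printed as TTTATA where it lies on the other strand.
Havcr1: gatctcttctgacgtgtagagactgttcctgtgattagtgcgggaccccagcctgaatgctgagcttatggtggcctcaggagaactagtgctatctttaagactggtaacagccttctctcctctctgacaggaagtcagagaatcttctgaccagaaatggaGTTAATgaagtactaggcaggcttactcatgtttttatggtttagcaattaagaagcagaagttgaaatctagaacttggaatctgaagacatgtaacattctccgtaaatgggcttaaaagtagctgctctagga
Kcnj15: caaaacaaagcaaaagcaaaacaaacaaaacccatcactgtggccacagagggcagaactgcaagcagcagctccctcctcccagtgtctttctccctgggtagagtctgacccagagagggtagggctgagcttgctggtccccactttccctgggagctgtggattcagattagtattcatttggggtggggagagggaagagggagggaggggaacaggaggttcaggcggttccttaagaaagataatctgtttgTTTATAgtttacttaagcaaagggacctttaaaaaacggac
Lrp2: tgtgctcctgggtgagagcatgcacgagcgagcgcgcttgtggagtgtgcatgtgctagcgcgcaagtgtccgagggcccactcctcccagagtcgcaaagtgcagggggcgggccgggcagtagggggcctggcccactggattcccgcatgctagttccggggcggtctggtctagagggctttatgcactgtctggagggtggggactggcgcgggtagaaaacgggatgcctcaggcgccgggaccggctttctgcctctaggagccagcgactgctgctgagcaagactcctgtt
Cubn: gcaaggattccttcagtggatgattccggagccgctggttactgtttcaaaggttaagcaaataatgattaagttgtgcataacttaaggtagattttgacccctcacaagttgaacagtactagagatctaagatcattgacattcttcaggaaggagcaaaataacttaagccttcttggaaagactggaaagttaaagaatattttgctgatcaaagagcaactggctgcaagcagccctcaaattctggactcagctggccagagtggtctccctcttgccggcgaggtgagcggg
Havcr1 held the letters of the HNF1 half-site, and the other 9 windows held none of the 4 motifs. Kcnj15 held the letters of the TATA box on the other strand and after the transcription start, which is not the usual place of a TATA box. Among 32851 RefSeq windows of the same length, the HNF1 half-site was found in 7.1%, the HNF4 site in 0.475%, the paired-domain core in 2.09% and the TATA box in 13.6%. A match says only that these letters stand in the window. The Lrp2 window had a GC content of 65% and the Cubn window one of 44.3%, against a median of 52.7% over all windows.

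Depth and labels bear on all values that follow. The counts on genes ranged from 6071103 to 43843615 per library (median 30339856), and levels are given as CPM, the counts of a gene relative to the TMM-scaled total of its library. A level of 3 counts, taken as the detection floor, corresponds to between 0.0684 and 0.494 CPM. The shallowest library was the m-ICc12 library of number 1 labelled TNF-treated, in which 13.46% of the counts fell on Lars2, as did 4.438% in number 3 of that label. The 12 pairs of deposited files are named for the opposite treatment to that of the label. The labels were followed, and every direction of a treatment difference is by label. By the file names these directions would be reversed, and the libraries labelled untreated would be the TNF-treated ones. The comparisons with MEF would then set treated m-ICc12 cells or organoids against untreated MEF. Which assignment is right was not tested. The paper reports that TNF raised the Nfkb2 protein in organoids. Among the transcripts that TNF changed in organoids it names Nfkb2, Tnfaip3, C3 and Relb, without giving their direction in its main text. The TNF target genes Nfkbia, Nfkb2, Tnfaip3, Relb and C3 had the lower level under the TNF label in 9 of 9 organoid cultures, and in m-ICc12 their 3 libraries labelled TNF-treated all lay below the 3 labelled untreated.

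The labelled cell types were compared with their markers. Of 26 genes of intestinal epithelium, 25 had a mean above 1 CPM in organoids labelled untreated, 9 in m-ICc12 (14 in m-ICc12 labelled TNF-treated) and 7 in MEF. Of all genes, 51.9%, 49.4% and 49.1% were above 1 CPM in organoids, m-ICc12 and MEF. A mean above 1 CPM can still be far below the organoid level. In m-ICc12, Sis, Olfm4, Slc5a1 and Apoa1 were at 0.166%, 0.186%, 0.201% and 0.208% of their organoid level. Vil1, Guca2b and Cdh17 were at 4.39%, 2.58% and 2.34% of it. The intestinal master regulators Cdx1 and Cdx2 had means of 456 ± 60.3 and 180.3 ± 23.3 CPM (SD, n = 9) in organoids, but 0.983 ± 0.413 and 0.253 ± 0.144 CPM (SD, n = 3) in m-ICc12. Krt20, a keratin of differentiated enterocytes, was higher in m-ICc12 instead, at 681 ± 34.0 against 179 ± 73.3 CPM in organoids (log2 fold change 1.91 ± 0.26, adjusted p = 9.1e-06, edgeR), and made up most of the summed level of the list in m-ICc12. Epcam and Cdh1, which most epithelia express, stood at 4.36 ± 2.37 and 1.50 ± 0.488 CPM in m-ICc12, while the simple-epithelial keratins Krt8 and Krt18 reached 1383 ± 227 and 528 ± 110 CPM there (SD, n = 3). In MEF, Col1a1 and Prrx1 were high at 2076 and 178 CPM, while Thy1 was listed at 0 and Pdgfra stood at 0.786 CPM, so that not all defining fibroblast markers were present.

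The 2 transcription factors were high in every m-ICc12 library. Pax8 (chromosome 2, 24420560 to 24475599, minus strand, GRCm38) was at 288, 280.2 and 258 CPM in m-ICc12 libraries 1 to 3 labelled untreated, and at 339, 299 and 289 CPM in those labelled TNF-treated. MEF had 0.166, 0.301 and 0.191 CPM of it, and the organoids labelled untreated lay between 1.71 and 6.09 CPM (median 3.72), those labelled TNF-treated between 2.05 and 7.04 CPM (median 4.19). Pax8 thus had 3 separate levels, low in MEF, intermediate in organoids and high in m-ICc12, with no overlap between the cell types. Pax2 (chromosome 19, 44756045 to 44837871, plus strand) was at 63.8, 38.0 and 59.5 CPM in m-ICc12 libraries 1 to 3 labelled untreated and at 114, 48.4 and 66.5 CPM in those labelled TNF-treated. None of the 18 organoid libraries held more than 2 counts of Pax2, and the MEF libraries held 1, 1 and 3 counts. With the floor of 3 counts per library in place of these counts, Pax2 was at least 471-fold higher in m-ICc12 than in organoids and at least 603-fold higher than in MEF (libraries labelled untreated).

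Cdh16 had the highest level of the set in m-ICc12. This cadherin gene (chromosome 8) was at 784, 693 and 584 CPM in m-ICc12 labelled untreated and at 659, 868 and 684 CPM in m-ICc12 labelled TNF-treated. Organoids labelled untreated had between 0.131 and 1.43 CPM (median 0.514), and MEF had 0.427, 0.527 and 0.535 CPM. The m-ICc12 libraries stood far above both other cell types, which overlapped with each other. The ratio of the means was 1106 against organoids and 1383 against MEF.

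Havcr1, the injury marker (chromosome 11, 46735080 to 46779578, plus strand), was at 199.9, 143 and 232 CPM in m-ICc12 libraries 1 to 3 labelled untreated and at 63.7, 124 and 122 CPM in those labelled TNF-treated. It ranged from 0.0581 to 0.367 CPM (median 0.0983) in organoids labelled untreated and from 0 to 0.512 CPM (median 0.0473) in those labelled TNF-treated, and was at 0.142, 0.0753 and 0.115 CPM in MEF. In counts these were 0 to 16 per organoid library and 3 to 6 per MEF library, against 366 to 9673 in m-ICc12. The 3 m-ICc12 libraries labelled TNF-treated all lay below the 3 labelled untreated.

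Among the channels, Kcnj15 (chromosome 16, 95257558 to 95300260, plus strand) was at 127, 197 and 137 CPM in m-ICc12 labelled untreated and at 269, 229 and 184 CPM in m-ICc12 labelled TNF-treated. It did not exceed 0.361 CPM in any organoid library, and MEF libraries had 0.712, 3.49 and 1.64 CPM, from 30 to 139 counts, which is above the organoid range. Hvcn1 (chromosome 5, 122206804 to 122242297, plus strand) was at 126, 149 and 103 CPM in m-ICc12 labelled untreated and at 115, 117 and 113 CPM in those labelled TNF-treated. No organoid library held more than 6 counts of Hvcn1 and no MEF library more than 5. The proton channel was therefore seen at an appreciable level in m-ICc12 and at or near the floor in both other cell types.

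The 2 receptors of protein reabsorption parted. Lrp2 (chromosome 2, 69424340 to 69586065, minus strand) was at 168, 195 and 156 CPM in m-ICc12 labelled untreated and at 312, 214 and 249 CPM in those labelled TNF-treated. MEF libraries had 8.67, 11.8 and 5.04 CPM, and organoids labelled untreated between 0.0373 and 0.710 CPM (median 0.114). Cubn (chromosome 2, 13276338 to 13491813, minus strand) was at only 3.24, 1.09 and 1.73 CPM in m-ICc12 labelled untreated, at 11.1, 0.858 and 2.74 CPM in those labelled TNF-treated and at 5.53, 3.56 and 1.53 CPM in MEF. The value of 11.1 CPM rests on 64 counts in the shallowest library. In organoids Cubn ranged from 5.90 to 234 CPM (median 99.2) among the libraries labelled untreated, so that organoids had Cubn nearly without Lrp2, and m-ICc12 had Lrp2 nearly without Cubn. MEF held both at a low level.

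Aqp1 (chromosome 6, 55336432 to 55348555, plus strand) was lowest in m-ICc12. The water channel gene was at 10.0, 8.62 and 5.90 CPM in m-ICc12 labelled untreated and at 11.7, 6.09 and 7.49 CPM in those labelled TNF-treated. It was at 326, 356 and 276 CPM in MEF and between 431 and 653 CPM (median 569) in organoids labelled untreated. The 3 cell types did not overlap in either set of labels. As these are bulk libraries, fewer cells that express a gene and less RNA of it per cell cannot be told apart.

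**Figure D1:**
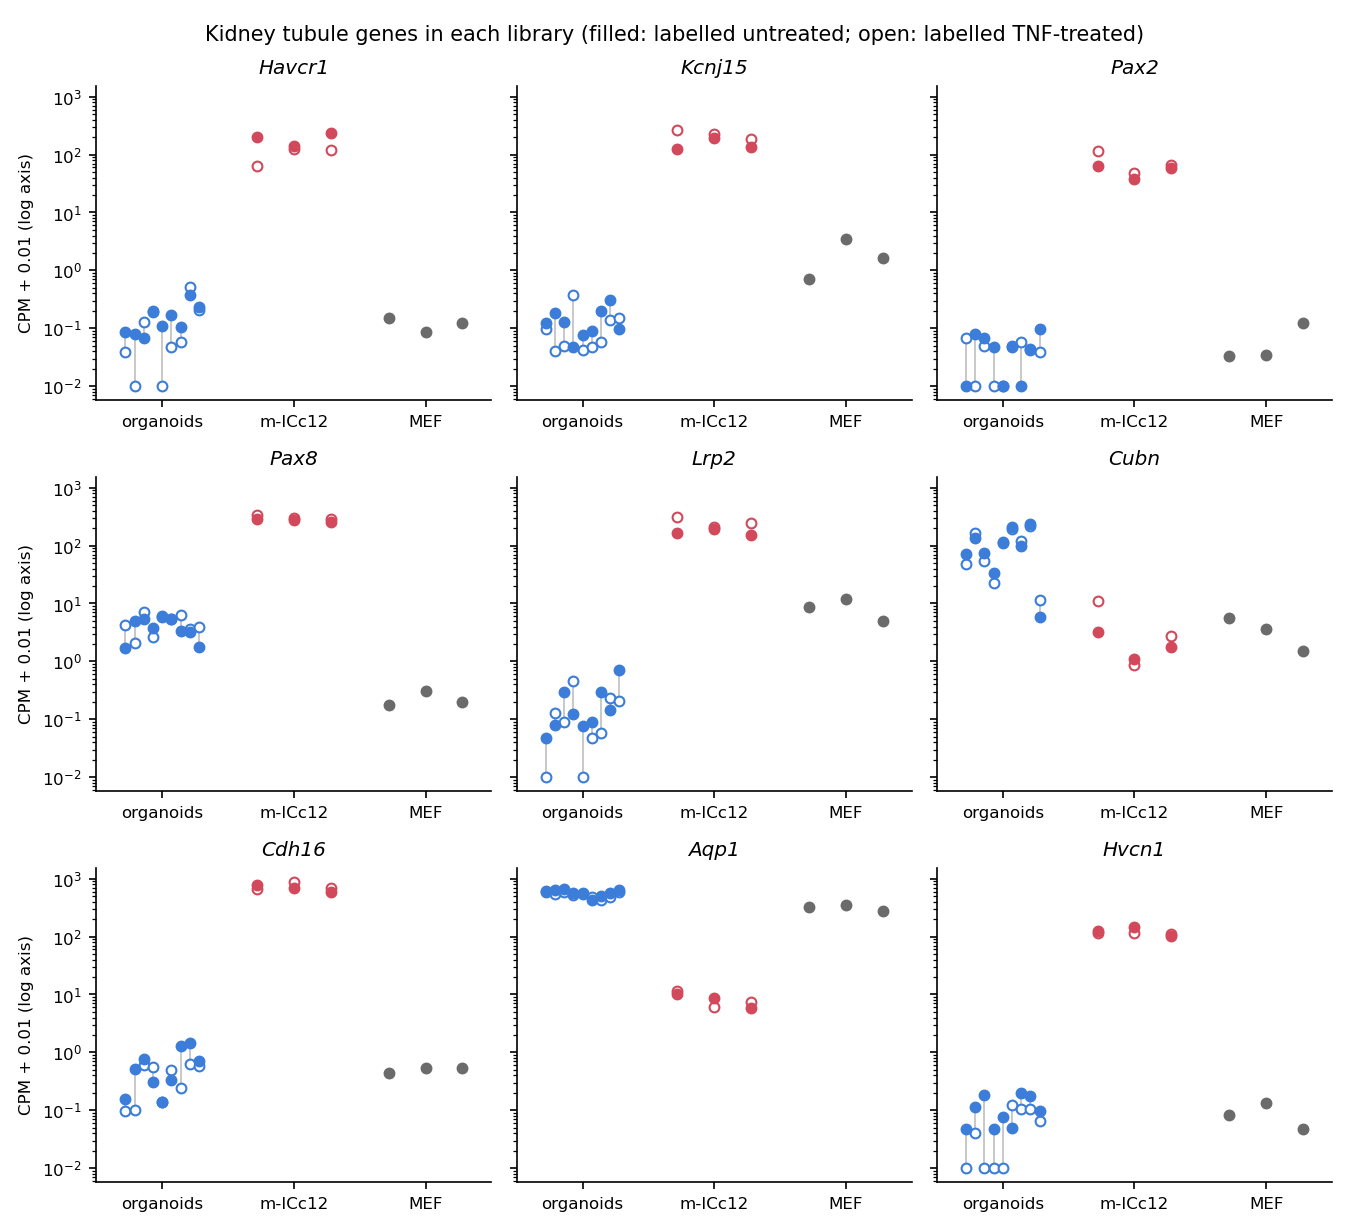
Level of each of the 9 genes in each of the 27 libraries, as CPM + 0.01 on a log axis, with filled points for libraries labelled untreated, open points for libraries labelled TNF-treated and a grey line joining the 2 libraries of an organoid culture. Havcr1, Kcnj15, Pax2, Pax8, Lrp2, Cdh16 and Hvcn1 were higher in all 6 m-ICc12 libraries than in any other library, while Aqp1 was lower in them and Cubn was at a level that overlaps MEF. This is a description, since the set was chosen by levels in m-ICc12 and organoids. The share of all genes separated in this way is not given here.

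Levels of different genes were compared per kilobase of exon, with the union of annotated exons as the length. In m-ICc12 labelled untreated, Cdh16 came first at 181 ± 26.4 CPM per kb, followed by Havcr1 at 83.0 ± 19.4 and Pax8 at 45.4 ± 2.57 (SD, n = 3), and these 3 ranges did not touch each other. Hvcn1 at 35.4 ± 6.45 and Kcnj15 at 24.4 ± 6.01 CPM per kb overlapped, as did Lrp2 at 10.3 ± 1.21 and Pax2 at 9.94 ± 2.55. Aqp1 at 3.11 ± 0.797 and Cubn at 0.135 ± 0.0740 CPM per kb came last and did not overlap. On this scale 0.839% of the 22291 genes with a known length were above Cdh16, 2.24% were above Havcr1, 22.2% above Pax2 and 52.3% above Cubn. In m-ICc12 labelled TNF-treated, Cdh16 was again first, whereas Havcr1 at 44.5 ± 14.7 CPM per kb overlapped both Pax8 at 51.0 ± 4.36 and Kcnj15 at 36.0 ± 6.73.

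Against organoids, 6 of the 9 genes stood at the upper end of all genes. In the edgeR model of 3 m-ICc12 and 9 organoid libraries labelled untreated, the log2 differences were 10.45 ± 0.48 (SE) for Pax2, 10.26 ± 0.27 for Havcr1, 10.22 ± 0.28 for Hvcn1, 10.11 ± 0.28 for Kcnj15, 10.07 ± 0.36 for Cdh16 and 9.80 ± 0.38 for Lrp2. They took places 15, 24, 29, 32, 37 and 59 among 12962 genes ordered from the highest difference. The fitted value of Pax2, at the floor in organoids, depends on the prior count of the model. Pax8, with a difference of 6.11 ± 0.28, stood at place 612. Cubn and Aqp1 went the opposite way, with differences of -5.79 ± 0.94 and -6.16 ± 0.22, and stood at places 11801 and 11849. As ratios of mean CPM, Havcr1 was 1296-fold, Kcnj15 1193-fold, Hvcn1 1255-fold, Lrp2 871-fold and Pax8 69.9-fold higher in m-ICc12, and Cubn 53.7-fold and Aqp1 70.2-fold lower. In this comparison 26.7% of all genes were called higher and 28.8% lower (adjusted p under 0.05 and a change of 0.5 or more on the log2 scale). Nothing is read from this background for the 9 genes, since their choice used the same contrast.

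**Figure D2:**
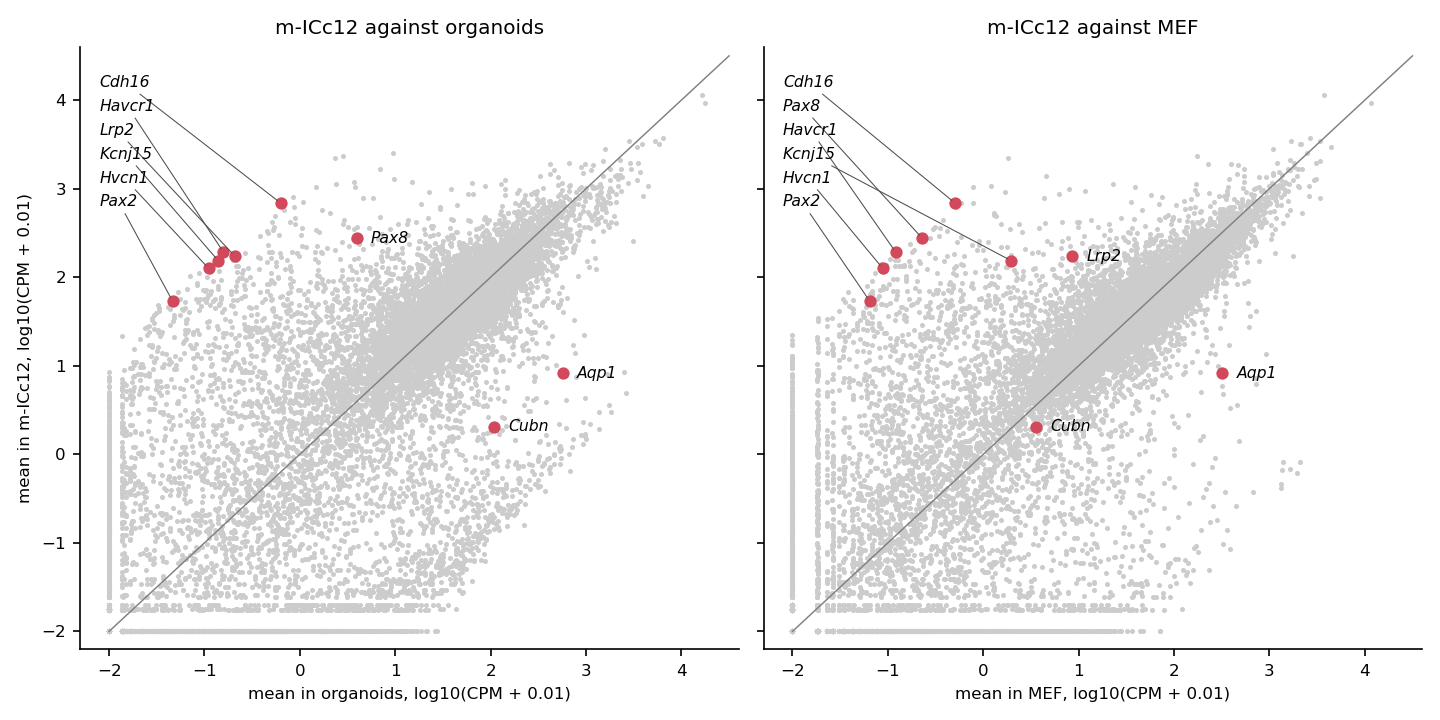
Mean level of each of 22524 genes in m-ICc12 (y axis) against organoids (left, x axis) and MEF (right, x axis), each as log10(CPM + 0.01) of libraries labelled untreated, with the 9 genes in red and a line of equal levels. Against organoids, Cdh16, Havcr1, Lrp2, Kcnj15, Hvcn1 and Pax2 lie along the upper left edge of the cloud, Pax8 lies to their right, and Cubn and Aqp1 lie below the line. Against MEF, Kcnj15 and Lrp2 lie nearer to the line than the other high genes.

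The comparison with MEF was not used by the rule, except that Havcr1 and Kcnj15 had been chosen for their level in m-ICc12. All 9 genes were, however, chosen with earlier results of these data known, and the same m-ICc12 libraries enter this comparison. The p-values of these genes are therefore not independent of their choice. Of 12830 genes, 26.6% were called higher in m-ICc12 and 28.3% lower (edgeR quasi-likelihood F-test, Benjamini-Hochberg adjustment). Pax2, Pax8 and Hvcn1 passed the filter on low counts through m-ICc12 alone, so a higher value was close to fixed and they are given without a test, as are Havcr1 and Kcnj15. The genes that passed in both groups were Cdh16, Lrp2, Aqp1 and Cubn. Cdh16 was higher by 10.39 ± 0.22 on the log2 scale (adjusted p = 2.9e-12), and Lrp2 by 4.29 ± 0.26 (adjusted p = 1.3e-08). Aqp1 was lower, with a log2 fold change of -5.34 ± 0.21 (adjusted p = 2.2e-10). Cubn had a log2 fold change of -0.86 ± 0.68 (adjusted p = 0.29), a difference within the spread of the replicates. As values only, the log2 differences were 10.67 ± 0.32 for Havcr1, 10.47 ± 0.31 for Hvcn1, 10.21 ± 0.23 for Pax8, 10.03 ± 0.44 for Pax2 and 6.26 ± 0.43 for Kcnj15. The value of Pax2, at the floor in MEF, depends on the prior count of the model.

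Between the cell types other than m-ICc12, the genes had no common direction. In MEF against organoids, 29.4% of 13144 genes were called higher and 32.5% lower. Cubn (-4.93 ± 0.90, adjusted p = 0.00015) and Aqp1 (-0.86 ± 0.13, adjusted p = 2.6e-05) were lower in MEF. Cdh16 had a log2 fold change of -0.33 ± 0.92 (adjusted p = 0.76), from 4 to 43 counts per organoid library and 14 to 21 per MEF library. Lrp2 and Kcnj15 passed the filter through MEF alone and Pax8 through organoids alone, so their log2 differences of 5.40 ± 0.77, 3.85 ± 0.78 and -4.15 ± 0.76 are given without a test. Havcr1, Pax2 and Hvcn1 did not pass the filter in either group.

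The traces of the high genes in the other cell types were set beside those of genes that should be absent there. As a percentage of the m-ICc12 mean, the organoid mean was 0.0675% for Pax2, 0.0772% for Havcr1, 0.0797% for Hvcn1, 0.0839% for Kcnj15, 0.0904% for Cdh16 and 0.115% for Lrp2. In MEF these percentages were 0.0578% for Havcr1, 0.0621% for Hvcn1, 0.0723% for Cdh16, 0.0797% for Pax8 and 0.101% for Pax2. For comparison, the 21 genes of the intestinal list with a mean of at least 50 CPM and their highest level in organoids had in MEF between 0.0798% and 0.821% of their organoid level (median 0.148%). In m-ICc12 the same 21 genes had between 0.0838% and 4.39% of it (median 0.201%). The exceptions among the 9 genes were Pax8 in organoids at 1.43%, Kcnj15 and Lrp2 in MEF at 1.27% and 4.91%, and, as percentages of the organoid level, Cubn in m-ICc12 and MEF at 1.86% and 3.26% and Aqp1 at 1.42% and 55.6%. The source of the traces was not tested.

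Of the 3 genes above 1 CPM in organoids, Cubn, Pax8 and Aqp1, Cubn had the widest range between cultures. Each mouse gave a single culture, so mouse and culture cannot be told apart. From mouse Z908 to mouse Z910 of facility SR it was at 72.5, 133 and 74.2 CPM in the libraries labelled untreated, in SE (mice Z911 to Z913) at 33.2, 117 and 208 CPM, and in GF (mice Z917 to Z919) at 99.2, 234 and 5.90 CPM. The libraries labelled TNF-treated of the same cultures had 48.8, 168 and 54.1 CPM in SR, 22.2, 109.7 and 196 CPM in SE, and 121, 217 and 11.7 CPM in GF. The highest culture was 39.6-fold above the lowest among the libraries labelled untreated and 18.5-fold among those labelled TNF-treated, while the 2 libraries of a culture differed by at most 1.98-fold. In the order of level, 7 of the 9 cultures held the same place under both labels, with mouse Z918 highest and mouse Z919 lowest. Aqp1, in contrast, had a mean of 574 ± 72.3 CPM (SD, n = 9) and Pax8 one of 3.94 ± 1.60 CPM among the organoids labelled untreated.

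In organoids, no gene of the set passed the threshold by origin of the mice or by TNF label, whether by edgeR or by DESeq2, and none had an unadjusted p under 0.05. Of 12315 genes, 0.0244% were called higher and 0.00812% lower in GF against SPF organoids. Havcr1, Kcnj15, Pax2, Lrp2 and Hvcn1 were below background there, and none of the other 4 was called, with log2 fold changes of 0.07 ± 0.63 for Cubn, -0.05 ± 0.14 for Aqp1, -0.72 ± 0.68 for Pax8 and 1.64 ± 1.21 for Cdh16 (adjusted p = 1 for each, edgeR). Without the highest culture (mouse Z918) the Cubn value was -1.02 (adjusted p = 0.98). By TNF label, 0.0661% of 12104 genes were called higher and 0.934% lower in organoids, and again none of the 4 genes was called. Their log2 fold changes were -0.05 ± 0.48 for Cubn, -0.11 ± 0.08 for Aqp1, 0.21 ± 0.36 for Pax8 and -0.75 ± 0.73 for Cdh16, with adjusted p between 0.82 and 0.99.

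In m-ICc12 the TNF label was not used by the rule, and all 9 genes could be tested. By label, 0.0169% of 11861 genes were called higher and 0.0927% lower, and none of the 9 genes was among them, although the TNF target genes were. Ccl2, a chemokine, fell from 63.5 ± 2.67 to 1.80 ± 1.40 CPM, and the NF-kB inhibitor gene Nfkbia from 86.9 ± 23.8 to 19.4 ± 4.19 CPM (SD, n = 3), in the libraries labelled TNF-treated (adjusted p = 4.8e-05 and 4e-04). Havcr1 had a log2 fold change of -0.88 ± 0.23 (adjusted p = 0.43, edgeR; 0.059, DESeq2) and was lower in the 3 libraries labelled TNF-treated than in any labelled untreated. Lrp2 (0.59 ± 0.17, adjusted p = 0.61) and Pax8 (0.18 ± 0.15, adjusted p = 1) were higher in all 3, without overlap. Kcnj15 (0.57 ± 0.19, adjusted p = 0.91) and Pax2 (0.51 ± 0.28, adjusted p = 1) had a higher mean under the TNF label, with overlap. Cubn had a value of 1.26 ± 0.89, Cdh16 one of 0.12 ± 0.16, Aqp1 one of 0.04 ± 0.42 and Hvcn1 one of -0.12 ± 0.17 (adjusted p = 1 for each), with overlapping libraries. The unadjusted p was under 0.05 for Havcr1, Lrp2 and Kcnj15, and no gene of the set passed by DESeq2. The share of all genes with such a p, or without overlap between the labels, is not given here. Nothing about the set is therefore read from either.

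These values depend on the libraries numbered 2. Without both of them, Havcr1 (-1.19, adjusted p = 5.7e-05), Kcnj15 (0.80, adjusted p = 0.036) and Lrp2 (0.82, adjusted p = 0.024) passed the threshold, and 93 genes were called in place of 13. Lars2 took 13.46%, 0.158% and 4.438% of the counts in libraries 1 to 3 labelled TNF-treated, where Havcr1 was at 63.7, 124 and 122 CPM, so that leaving out number 2 keeps the libraries of that label that are rich in Lars2. With Lars2 left out of the counts, Havcr1 was at -0.88 (adjusted p = 0.42), and the part of Lars2-rich libraries in these values was not tested further. Without the shallowest library, labelled TNF-treated, Havcr1 was at -0.64 (adjusted p = 0.65) and Lrp2 and Kcnj15 at 0.43 (adjusted p = 1 for each). Whether the label difference differed between m-ICc12 and organoids was tested as an interaction, and no gene of the set passed, the lowest adjusted p being 0.66 for Kcnj15.

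**Figure D3:**
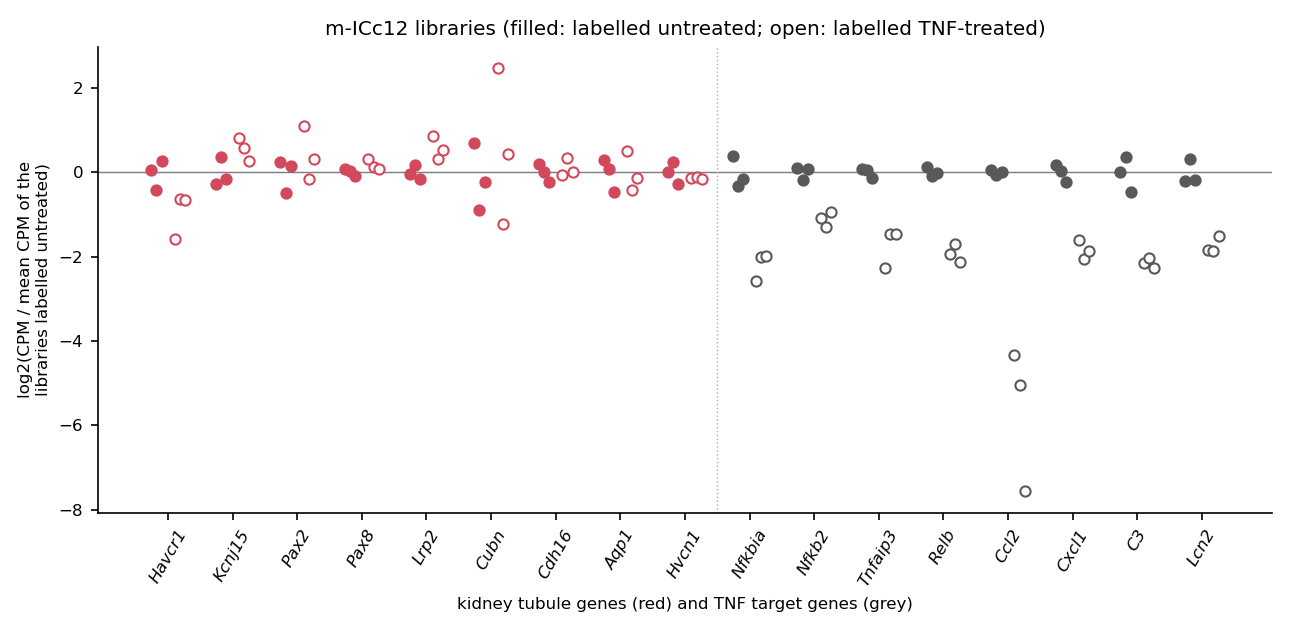
Level of each m-ICc12 library relative to the mean of the libraries labelled untreated (y axis, log2 of the CPM ratio; x axis, genes), with filled points for the label untreated and open points for TNF-treated, for the 9 genes in red and 8 TNF target genes in grey. All open points lie below the filled ones for the 8 TNF target genes and for Havcr1, and above them for Pax8 and Lrp2.

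The 9 genes were then placed among the other genes of the nephron. Of 20 transcription factors of the kidney lineage, 12 had a mean above 1 CPM in m-ICc12, 6 in organoids and 10 in MEF (libraries labelled untreated), where 49.4%, 51.9% and 49.1% of all genes did. Tfcp2l1, a factor of distal and collecting tubule, was the highest in m-ICc12 at 189 ± 34.3 CPM, while Hnf4a, a factor of proximal tubule, liver and gut, was at 132 ± 49.1 and Maf at 113 ± 29.5 CPM (SD, n = 3). Of the factors tested, 7 of 12 against organoids and 12 of 17 against MEF passed the filter through 1 group alone. Of the 5 that passed in both groups, 3 were called higher and 2 lower in each comparison. Among all genes that passed in both groups, 24.7% were called higher and 24.9% lower against organoids, and 24.5% and 25.3% against MEF. Sall1, a factor of nephron progenitors, was at 0.127 CPM in organoids, 0.0501 CPM in MEF and 78.9 CPM in m-ICc12, and passed the filter through m-ICc12 alone. Emx2, needed for kidney formation, was at 37.8 CPM in m-ICc12, 0.0450 CPM in organoids and 6.48 CPM in MEF. Hnf4a was lower than in organoids, which had 1073 CPM (log2 fold change -3.04 ± 0.20, adjusted p = 1.1e-09). Of this list 7 genes were at or under the floor in all 6 m-ICc12 libraries, among them Six2, Tfap2b and Sim1.

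Some transporters and enzymes of the proximal tubule were found and others were not. Of 34 such genes, 15 had a mean above 1 CPM in m-ICc12, 17 in organoids and 4 in MEF, where 49.4%, 51.9% and 49.1% of all genes did. The counts in m-ICc12 and organoids were near the share of all genes, and nothing is read from them. Mme (neprilysin) was at 289 ± 63.5 CPM in m-ICc12, the bicarbonate transporter Slc4a4 at 167 ± 31.2, the brush-border enzyme Ggt1 at 163 ± 27.8 and the kidney amino acid transporter Slc6a18 at 118 ± 36.5 CPM (SD, n = 3). Of the 12 that passed the filter in both m-ICc12 and organoids, 3 were called higher (24.7% of all such genes were) and 6 lower (24.9%), among the latter the amino acid transporter Slc3a1 (-5.19 ± 0.47, adjusted p = 5.7e-08). Slc6a18 was at 0.132 CPM in organoids and 0.0835 CPM in MEF. Only 4 of the list passed in both m-ICc12 and MEF, of which 3 were called higher and none lower (24.5% and 25.3% of all such genes). The organic anion transporters Slc22a6 and Slc22a8 and the inositol oxygenase Miox were at 0 in m-ICc12, and 12 of the 34 genes were at or under the floor in all 6 libraries.

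Most partners of Lrp2 and Cubn were found in all 3 cell types. All 10 genes of the endocytic machinery had a mean above 1 CPM in m-ICc12 and in organoids, and 9 did in MEF (libraries labelled untreated). Of all genes, 49.4%, 51.9% and 49.1% did in m-ICc12, organoids and MEF. Dab2, the adaptor that binds the tail of megalin, was at 88.6 CPM in m-ICc12 and 83.3 CPM in MEF, but at 1.27 CPM in organoids (log2 fold change of m-ICc12 against organoids 6.10 ± 0.52, adjusted p = 3.5e-08). The chloride transporter Clcn5 (1.79 ± 0.14), Rab11a (1.39 ± 0.12) and Ocrl (1.97 ± 0.21) were also called higher than in organoids, as 5 of the 10 were, with 1 lower (24.7% and 24.9% of all genes that passed in both groups). In MEF against organoids, 5 of the 9 that passed in both were called higher and 1 lower (27.3% and 29.5% of all such genes). In m-ICc12 against MEF, 2 of 9 were called higher and none lower (24.5% and 25.3%). Amn, which carries cubilin to the surface, was at 30.4 CPM in m-ICc12, 35.9 CPM in organoids and 0.0541 CPM in MEF.

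Few genes of later segments were above 1 CPM in m-ICc12. Of 13 genes of the thick ascending limb 1 had a mean above 1 CPM, of 10 genes of the distal convoluted and connecting tubule 3 did, of 11 of collecting duct principal cells 2 and of 12 of intercalated cells 2. Of all genes, 49.4% did. In the same order the counts were 0, 2, 3 and 4 in organoids and 0, 1, 2 and 0 in MEF. By summed level, m-ICc12 was above both for all these lists except principal cells. The intercalated list summed to 271 to 454 CPM per m-ICc12 library and 8.13 to 41.5 CPM in organoids. The principal cell list summed to 17.8 to 33.1 CPM and 102 to 211 CPM. Kcnj16, the channel subunit that pairs with Kcnj15, was at 112 ± 32.0 CPM in m-ICc12 and at 0.0783 and 0.0633 CPM in organoids and MEF labelled untreated, where at most 9 counts were found in a library. It passed the filter through m-ICc12 alone and is given without a test. Car2, a carbonic anhydrase, was at 358 ± 89.0 CPM in m-ICc12 (8.40 ± 0.60 against organoids, adjusted p = 3.4e-09). Slc12a1, Aqp2, Calb1 and the podocyte gene Nphs1 were at 0 in the m-ICc12 libraries labelled untreated, where 3 of 8 podocyte genes were above 1 CPM. Umod, the uromodulin gene, was at a mean of only 0.947 CPM in m-ICc12 and at 0 in organoids and MEF.

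Havcr1 belongs with genes that injured tubules switch on. All 16 genes of the injury list had a mean above 1 CPM in m-ICc12, against 11 in organoids and 11 in MEF. The shares of all genes were 49.4%, 51.9% and 49.1%. Vim was at 2510 CPM in m-ICc12 and 2467 CPM in MEF against 9.49 CPM in organoids, and the secreted phosphoprotein Spp1 at 2325 CPM against 174 and 2.81 CPM. The cadherin Cdh6 was at 113 CPM in m-ICc12 and at 0.0795 and 0.105 CPM in MEF and organoids. Of the 11 that passed the filter in both m-ICc12 and organoids, 7 were called higher and 1 lower (24.7% and 24.9% of all such genes). Of the 12 that passed in both m-ICc12 and MEF, 7 were called higher and 4 lower (24.5% and 25.3%). Several genes of this list, such as Vim and Ccn2, are also high in cells of mesenchymal origin.

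Relatives were counted for the Pax, channel, aquaporin, TIM and cadherin families. The other 7 Pax genes had means below 1 CPM in m-ICc12, and 6 of them were at or under the floor in all 6 libraries. Of 14 other inward rectifier genes only Kcnj16 was above 1 CPM. Of 10 other aquaporins 3 were above 1 CPM in m-ICc12, led by Aqp6 at 2.52 CPM, and the relatives of Havcr1, Timd2 and Havcr2, were at 0.956 and 0.136 CPM. Among 9 other cadherins, Cdh2 at 168 CPM, Cdh6 at 113 CPM, Cdh13 at 41.5 CPM and the intestinal Cdh17 at 22.4 CPM were above 1 CPM. Cdh1 was as well, but stood at only 0.148% of its organoid level, beside 0.142% in MEF.

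Other tissues also express some of the 9 genes, and their markers were counted for comparison. Of all genes, 49.4% had a mean above 1 CPM in m-ICc12, 51.9% in organoids and 49.1% in MEF (libraries labelled untreated). Of 9 thyroid genes 3 did in m-ICc12, 2 in organoids and 1 in MEF. Nkx2-1 and Foxe1 were at 0 in m-ICc12, while Tg, Tshr and Hhex passed the filter against organoids through m-ICc12 alone. The summed level of the thyroid list was 5.13 to 7.18 CPM per m-ICc12 library and 3.02 to 34.8 CPM in organoids. Of 9 lung genes 3 were above 1 CPM in m-ICc12, 1 in organoids and 1 in MEF. Napsa at 152 CPM is also made in proximal tubule and Foxj1 at 43.5 CPM belongs to ciliated cells, while Sftpb, Sftpc and Scgb1a1 were at 0. Of 10 genes of the female reproductive tract 4 were above 1 CPM in m-ICc12, 2 in organoids and 6 in MEF. In m-ICc12 they were Krt7, Foxj1, Hoxa10 and Ovgp1, while Pgr and Esr1 were at 0. Of 15 leukocyte genes, bearing on Hvcn1, 3 were above 1 CPM, with Spi1 at 8.04 and Cd68 at 11.4 CPM, and Ptprc was at 0.807 CPM. The summed level of this list was 18.05 to 28.3 CPM per m-ICc12 library labelled untreated, 144 to 270.3 CPM in organoids and 2.30 to 4.89 CPM in MEF. Of 11 stomach genes none, of 11 liver and bile duct genes 3, of 8 podocyte genes 3 and of 16 genes of fibroblasts and mesenchyme 2 (Zeb1 and Zeb2) exceeded 1 CPM. The part of other cell types in the levels of the 9 genes was not tested.

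**Figure D4:**
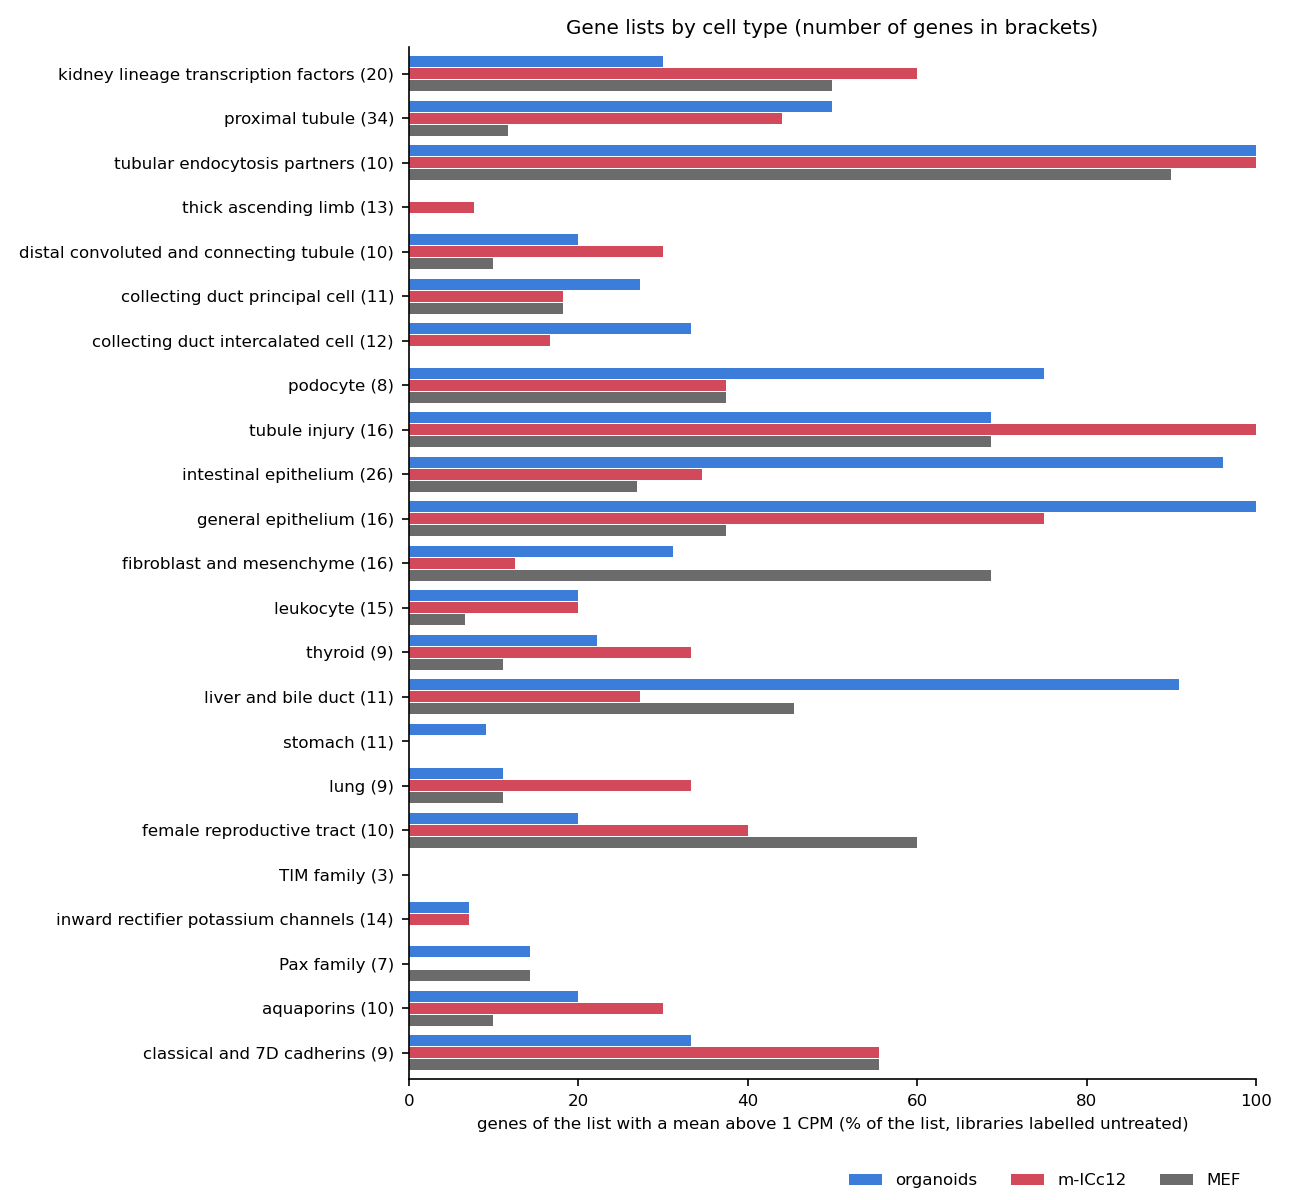
Percentage of the genes of each list with a mean above 1 CPM in organoids (blue), m-ICc12 (red) and MEF (grey), libraries labelled untreated, with the number of genes in brackets. In m-ICc12 the injury and endocytosis lists are complete, kidney lineage factors reach 12 of 20 and intestinal genes 9 of 26, where 49.4% of all genes are above 1 CPM.

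**Figure D5:**
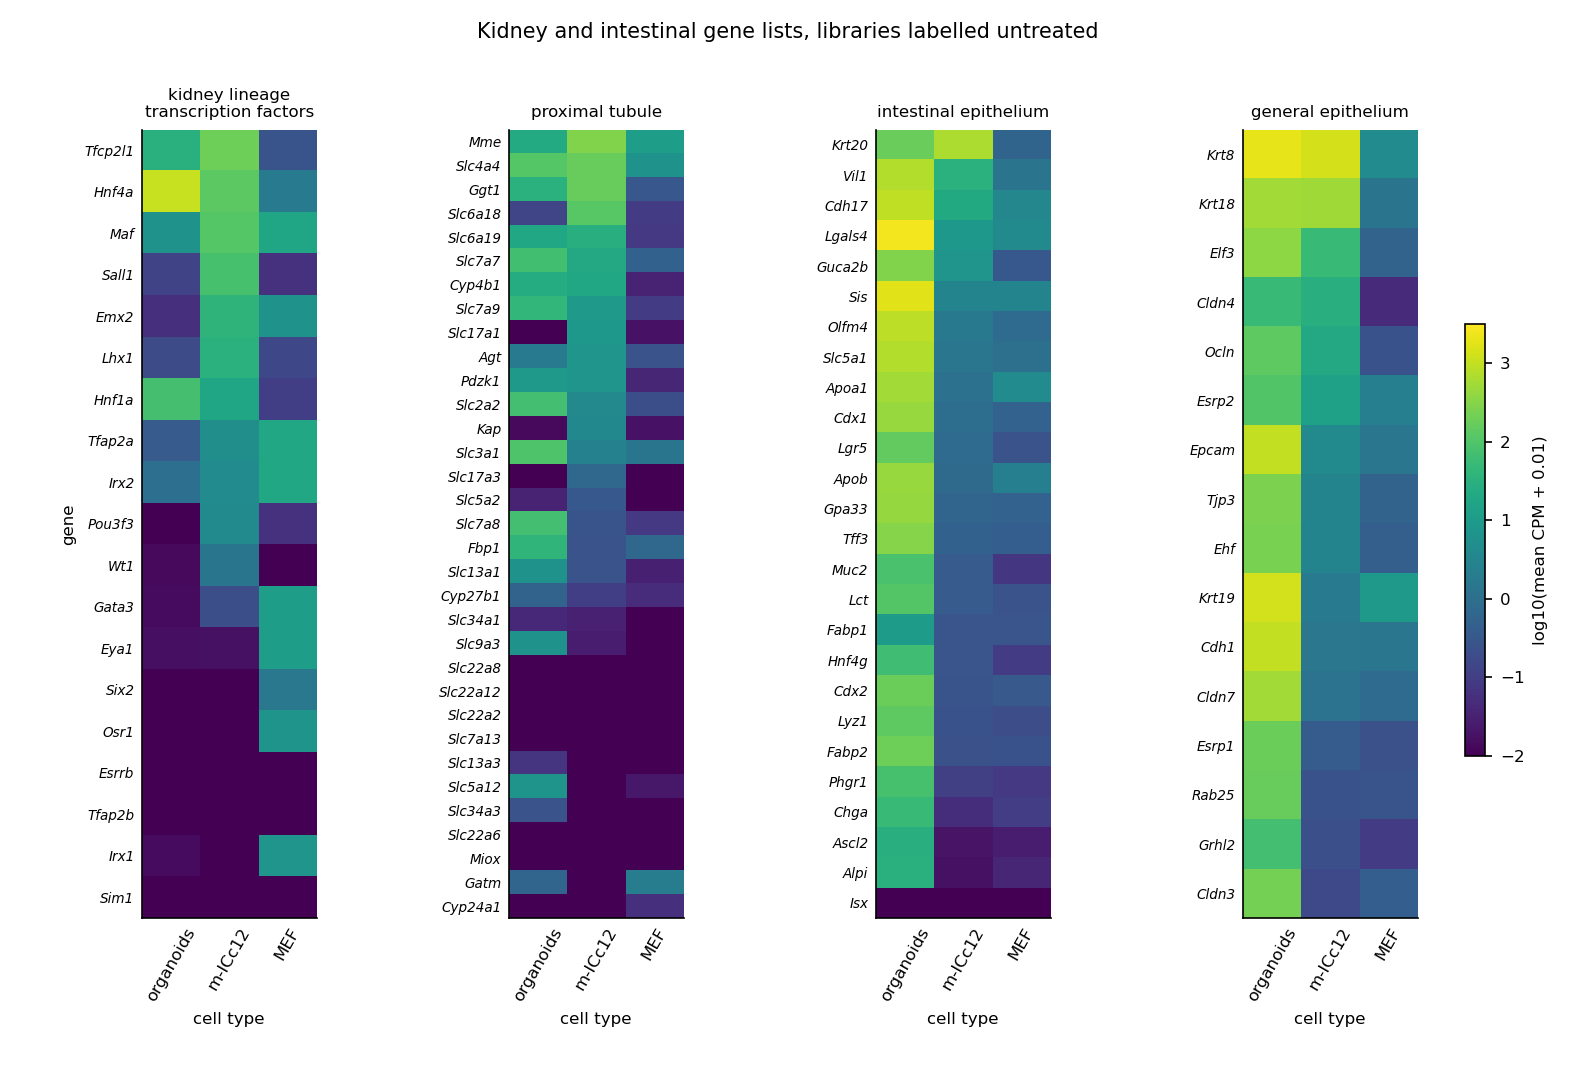
Mean level of the genes shown of 4 lists in organoids, m-ICc12 and MEF, as log10(CPM + 0.01) from dark blue to yellow, with genes ordered by their level in m-ICc12 (libraries labelled untreated). Sall1 and Slc6a18 are bright in m-ICc12 alone, Hnf4a is shared with organoids, and most intestinal genes are bright in organoids alone.

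Genes with the pattern most like that of each of the 9 were named by Pearson's r of log2 CPM over the 27 libraries. These libraries share cultures, depth and 3 cell types, so r is a description only. Havcr1 was closest to Aldh1a2 (r = 0.990), a retinoic acid-making enzyme, Slc6a18 (0.987), H2-DMb2, St8sia1 and Ntm. Pax2 was closest to Cysltr1 (0.993), Klhl14, Hoxc5, Fam163a and Hoxc11, and Hvcn1 to Usp29 and Spaca7 (0.993 each), Ntm, Klhl14 and Gm8104. Cdh16 was closest to Gpx3 (0.996), the plasma glutathione peroxidase made in proximal tubule, then to Col4a3, Napsa, Col4a4 and Hvcn1. Gpx3 was at 2.32 CPM in organoids, 1.79 CPM in MEF and 2204 CPM in m-ICc12, and Col4a3 and Col4a4, collagen chains of the glomerular and tubular basement membrane, stood at 133 and 158 CPM in m-ICc12 and at about 0.2 CPM in organoids.

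The genes with some level outside m-ICc12 had other neighbours. Kcnj15, with its low level in MEF, was closest to Hacd4 (0.991), Cldn1, Kdr, Sspn and Ppbp, and Lrp2 to Slc6a17 (0.989), Fhod3, Akap12, Tns1 and Adgrg6. Pax8, intermediate in organoids, was closest to Pard6b (0.981), Gstm2, Srd5a1, Jag1 and Agap1. Cubn was closest to Slc15a1 (0.950), the peptide transporter of enterocytes, Slc5a4b, Slc26a6, Gm21885 and Slc46a3. Aqp1 was closest to Ctsz (0.994), Panx1, Ifih1, Disp1 and Rangrf, each of which was below 1 CPM in m-ICc12 labelled untreated. Over the same libraries, r was 0.990 between Cdh16 and Hvcn1, 0.950 between Havcr1 and Kcnj15, -0.978 between Havcr1 and Aqp1 and -0.852 between Lrp2 and Cubn.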

How the data were processed

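Poly(A) RNA of 27 mouse libraries was sequenced as single-end reads. The authors trimmed the reads with Trimmomatic, aligned them to GRCm38 with STAR (2.5.4b in the submitters' processing notes) and counted them per gene; the deposited values are these raw counts, without normalization. Whether counting used the strand is not given in the sources used here, so reads of overlapping genes may be shared. Ensembl identifiers were named with GENCODE vM21, which matched 22291 of 22524 genes.

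Here, counts were scaled by TMM (edgeR 4.0.16, R 4.3.3; Python 3.11.15) to CPM. Total counts ranged from 6071103 to 43843615 per library, and a floor of 3 counts covers counting error only. Each comparison held only the groups compared, genes with at least 10 counts in 50% of the samples of 1 group, and edgeR's quasi-likelihood F-test with Benjamini-Hochberg adjustment. A gene was called at an adjusted p under 0.05 and a change of 0.5 or more on the log2 scale. Log2 CPM for correlations used a prior count of 2. The script was tested on artificial counts with known changes.

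The genes named are the 9 genes in every library, up to 4 genes per list by the smallest p or the highest level, list genes at the floor, the 5 closest genes by r and the TNF target genes. Further list genes, such as Amn, Epcam, Ptprc and the family relatives, were named after their values were seen. Some genes of the lists enter the counts but are not reported here by name. The 9 genes and the 24 lists were chosen with earlier results of these data known. Alternatives were DESeq2 1.42.0, all genes with at least 1 count, replicate blocks, libraries labelled TNF-treated in place of untreated ones, summed libraries, 1 fit over all untreated libraries, levels without TMM or with DESeq2 size factors, and each culture left out. Leaving out Lars2 or the shallowest library was added after seeing the data.

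The pairing of organoid libraries comes from the mouse, with deviations from the label means correlated at r between 0.0821 and 0.31 within a culture.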

Additional observations from a re-analysis of the deposited data

Results flagged for a closer look

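In 4 groups of 9 organoid libraries, the highest library stood apart from the others by more than Dixon's 95% limit. Normally distributed values pass this limit in about 1 of 20 groups. The flagged values rest on few counts, so that rate need not hold here. Havcr1 was at 0.512 CPM (16 counts) in the organoids of mouse Z918 labelled TNF-treated. Kcnj15 was at 0.361 CPM and Lrp2 at 0.451 CPM in those of mouse Z911 labelled TNF-treated, from 4 and 5 counts in a library of 11440041. Lrp2 was at 0.710 CPM (16 counts) in the organoids of mouse Z919 labelled untreated. All 4 values are below 1 CPM and far below the lowest m-ICc12 library.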

How the results depend on the processing

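The depth limits statements on Pax2, Havcr1, Hvcn1, Kcnj15 and Lrp2 in organoids, which rest on at most 16 counts per library. Under the libraries labelled TNF-treated, the mean levels in m-ICc12 were 103 CPM for Havcr1, 227 for Kcnj15, 76.3 for Pax2, 309 for Pax8, 258 for Lrp2 and 4.91 for Cubn, each more than 1 SD from the untreated mean. With these libraries, Cubn turned to 0.42 in m-ICc12 against MEF, Cdh16 to 0.42 in MEF against organoids and Pax8 to 0.0093 in GF against SPF. By TNF label in m-ICc12, 13 genes were called, 46 with DESeq2, 30 with all genes of at least 1 count, 6 with the library number as a replicate block and between 15 and 93 with 1 number left out (93 without number 2). The m-ICc12 libraries share only a number (r between -0.0067 and 0.0925), and neither this block nor the one by mouse in organoids changed a call of the 9 genes. Without the shallowest library, an alternative chosen after seeing the data, Cubn turned to -0.16 and Aqp1 to -0.26. With 1 number left out, Aqp1 lay between -0.09 and 0.28, Cdh16 between -0.0012 and 0.28 and Hvcn1 between -0.24 and 0.01. For GF against SPF, 4 genes were called, 20 with DESeq2, 7 with both libraries summed and between 2 and 5 with 1 mouse left out (2 without Z917, Z918 or Z919), where Cubn lay between -1.02 and 0.63 and Aqp1 between -0.14 and 0.02. The cause was not tested.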
